A study of Mus musculus with 6 samples.

Results

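The genes of blood coagulation and of its natural anticoagulants were examined in mouse liver mRNA. The set held 35 genes, chosen by symbol for their known role, and all 35 were found among the 24421 genes of the authors' table. The libraries came from 3 WT and 3 PAI-1 heterozygous (Pai-1+/-) male C57BL/6 mice, littermates by the series title, all 21 weeks old by the labels, fed standard chow without restriction, and no treatment was given. The heterozygotes carry 1 disrupted copy of the gene for plasminogen activator inhibitor 1 (PAI-1) in every cell. They descended from a cross of Pai-1-/- and WT mice, so nothing in the model is specific to the liver. The study asked how lower PAI-1 changes hepatic gene expression. Each level below is the authors' mean over all the libraries, both genotypes pooled, so it describes the liver of these mice and not the difference between genotypes. That difference was not analysed here, because the columns of counts per animal carry numbers that match no sample label. The mean was deposited as 1 value per gene, and with those columns left unused no SD was computed and the order of any pair of genes was not tested.

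Coagulation is a cascade of plasma proteases that ends in thrombin, which cuts fibrinogen into fibrin. Several of these proteases, and the anticoagulant proteins C, S and Z, carry glutamates that the liver carboxylates with vitamin K as cofactor, in the Gla domain, which lets them bind calcium and membranes. Hepatocytes secrete most of the factors, while endothelial cells are the known source of others, such as factor VIII and von Willebrand factor. PAI-1 itself acts downstream of clotting, by inhibiting the activators of plasminogen.

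The vitamin K-dependent genes are known to share the Gla domain, and a coding pattern of that domain was searched in all genes of the set. The pattern searched was a glutamate codon (GAA or GAG), a second one 4 codons on, and a cysteine codon 6 codons on, within the first 100 codons. It was taken in advance from the known carboxylated stretch of vitamin K-dependent clotting proteins. Its presence in those genes was therefore set by that choice and served only as a check of the search. All 7 vitamin K-dependent genes held it, 0 of the other 28 genes did, and 232 of 21918 mouse coding genes (1.06%) did. The 45 codons around the pattern are shown for 6 of the 7 genes to make the shared spacing visible, with glutamate codons in capitals. The sequences are coding sequence of GENCODE M21 transcripts (GRCm38), read from codon 39 in *F2*, 36 in *F7*, 42 in *F9*, 47 in *F10*, 36 in *Proz* and 36 in *Pros1*.
F2: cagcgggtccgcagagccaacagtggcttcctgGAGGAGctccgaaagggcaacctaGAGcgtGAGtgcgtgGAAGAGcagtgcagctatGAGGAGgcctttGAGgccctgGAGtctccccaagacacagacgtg
F7: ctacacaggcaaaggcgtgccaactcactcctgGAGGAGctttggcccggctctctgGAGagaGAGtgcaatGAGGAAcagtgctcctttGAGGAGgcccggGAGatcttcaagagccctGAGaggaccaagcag
F9: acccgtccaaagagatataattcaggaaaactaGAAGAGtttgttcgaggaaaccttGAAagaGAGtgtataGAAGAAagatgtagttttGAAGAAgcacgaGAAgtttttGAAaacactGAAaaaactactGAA
F10: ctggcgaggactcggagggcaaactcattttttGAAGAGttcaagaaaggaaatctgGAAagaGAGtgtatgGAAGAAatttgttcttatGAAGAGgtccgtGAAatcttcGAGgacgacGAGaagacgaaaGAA
Proz: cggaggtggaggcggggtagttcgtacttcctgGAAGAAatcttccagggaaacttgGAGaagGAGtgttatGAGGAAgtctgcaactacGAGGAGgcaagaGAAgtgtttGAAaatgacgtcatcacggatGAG
Pros1: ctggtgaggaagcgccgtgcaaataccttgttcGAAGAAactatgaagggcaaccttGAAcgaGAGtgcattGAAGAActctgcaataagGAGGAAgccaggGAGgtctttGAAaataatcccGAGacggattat
A glutamate codon stood at the same 9 of the 45 positions in all 7 genes, *Proc* included. The windows were aligned on the pattern, which fixes 2 of these positions. The other 7 were not fixed by the search. The genes were chosen as carriers of the same domain, however, so the 7 positions describe that domain and are not independent agreement between genes. Each window held 10 to 12 such codons, and 76 in all, at 13 positions. *F9*, which encodes factor IX, held 12. *F2*, which encodes prothrombin, held 10, and 9 of them were GAG. In *F9*, 2 were GAG. At the first glutamate codon of the pattern all 7 genes had GAG, whereas the choice of codon varied between genes over the rest of the window. Of the 7 genes outside the set known to encode a Gla domain, all 7 held the pattern, and 3 of them, *Gas6*, *Prrg1* and *Prrg3*, had a glutamate codon at all 9 positions. All 7 of these genes also had GAG at the first glutamate codon, so this GAG was not particular to the clotting genes. With the whole coding sequence searched, *Vwf* was the one gene of the other 28 that also held the pattern, against 5.46% of all coding genes.

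**Figure D1:**
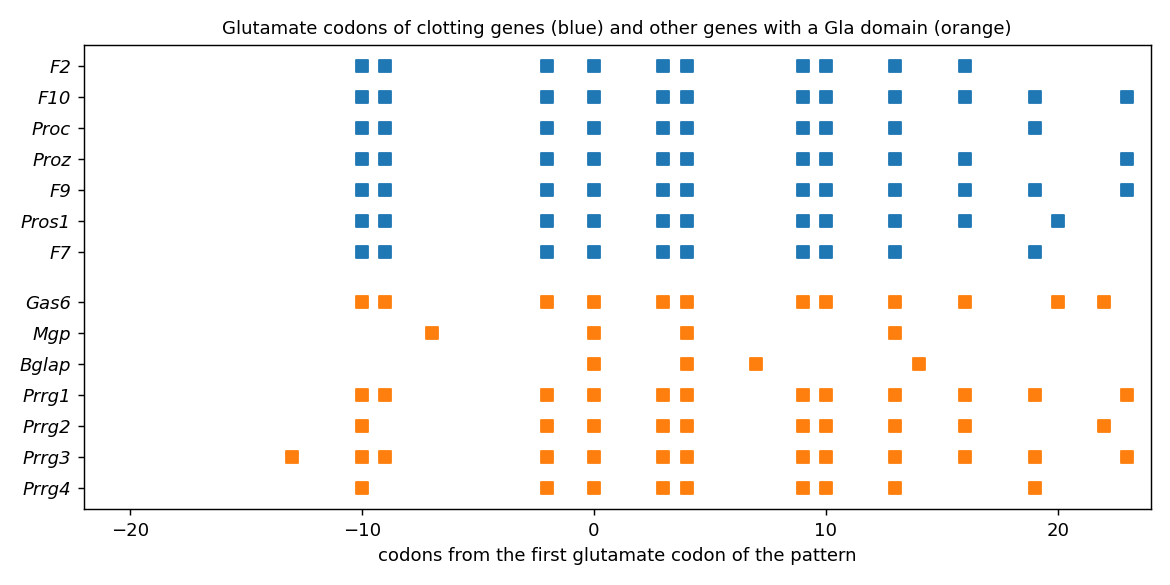
Each square is a glutamate codon, at its distance in codons (x axis) from the first glutamate codon of the pattern, for the 7 vitamin K-dependent clotting genes (blue) and 7 other genes with a Gla domain (orange). The 7 clotting genes share 9 columns of squares, and all 14 genes share the 2 that the pattern fixes.

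The mean normalized count is a scaled number of reads, so it rises with transcript length. To set genes beside each other, it was divided by the length of the longest annotated transcript and scaled so that all matched genes sum to 1000000, and the result is the level per kilobase. By this measure 28 of the 35 genes lay in the upper part of the range, above the median of all genes listed above 0 (4.07 per kilobase), and 24 lay in the top 10% of those genes. The median gene of the set lay at percentile 96.6. The set took 3.16% of the sum of all mean normalized counts, which was 30045982. The levels were far from even within it, with a few secreted proteins at the top and a small group of genes near or under the median of all genes.

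**Figure D2:**
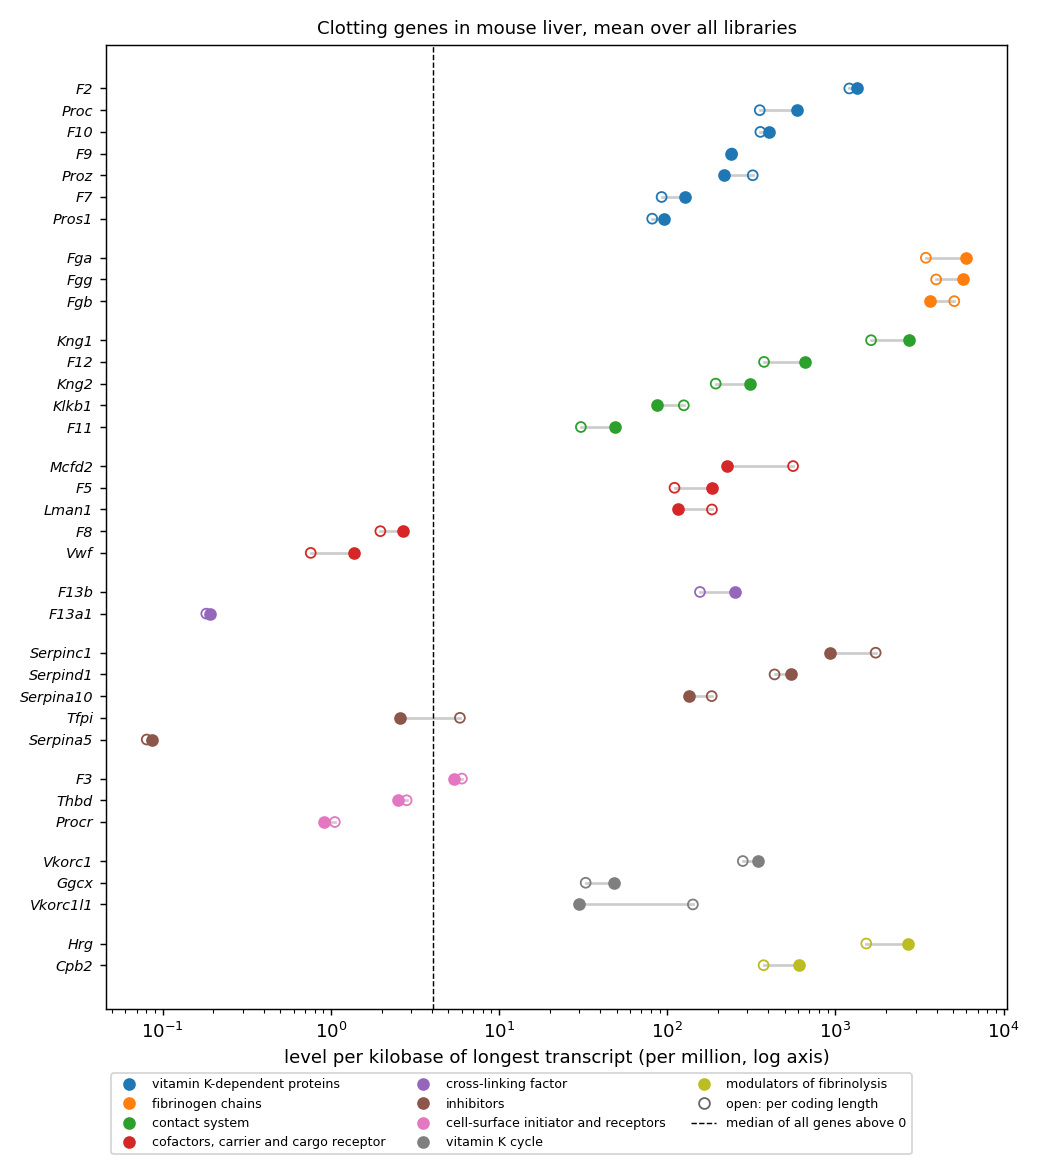
Level per kilobase (x axis, of 1000000 in all, log axis) of each clotting gene, grouped by role. Filled points use the longest transcript and open points the coding length, and the dashed line is the median of all genes listed above 0. The fibrinogen chains lie furthest right, between 3672 and 6014 for the longest transcript, and *F13a1* and *Serpina5* furthest left, at 0.19 and 0.086.

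The 3 fibrinogen chains were the most abundant genes of the set. Fibrinogen is built of pairs of the chains that *Fga*, *Fgb* and *Fgg* encode. Their mean normalized counts were 205492 for *Fga*, 184798 for *Fgb* and 132774 for *Fgg*, ranks 11, 13 and 26 of all genes. Together they took 55.1% of the summed mean normalized counts of the whole set and 1.74% of those of all genes listed. Per kilobase the levels were 6014 for *Fga*, 5774 for *Fgg* and 3672 for *Fgb*, so the highest was 1.64 times the lowest. Per coding length the order changed, with *Fgb* highest at 5090, then *Fgg* at 3971 and *Fga* at 3450. The order of the chains therefore depended on the length used, while their closeness did not.

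The vitamin K-dependent genes were expressed throughout, but over a wide range. *F2* stood well above the rest of the group, with a mean normalized count of 56417 and a level per kilobase of 1349. Its longest annotated transcript, of 3167 bases, has 4 exons and is longer than the transcript with its longest coding sequence, of 1988 bases, on which its level would be 1959. *Proc*, the gene of the anticoagulant protein C, followed at 592 per kilobase, and *F10*, whose product activates prothrombin, at 403. *F9* reached 238 and *Proz*, the gene of protein Z, 219. The lowest of the group were *F7*, which starts the cascade together with tissue factor, at 127, and *Pros1*, whose product is the cofactor of protein C, at 95.04. Per coding length *F2* was still highest, but *F10* (358) and *Proc* (355) lay side by side, *Proz* (322) lay above *F9* (242), and *Pros1* and *F7* were again lowest. All 7 lay in the top 10% of genes, and the highest level was 14.2 times the lowest. Their median was 238 per kilobase, against 160 for the other 28 genes, a ratio of 1.49.

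That ratio turned with the genes counted in the comparison. Of the other 28 genes, 16 were counted as genes of plasma proteins from hepatocytes, and their median was 576 per kilobase, so that the vitamin K-dependent genes had 0.414 of their level. Per coding length they had 0.859 of it. The 16 include *Serpina5*, which was near 0 in these livers, and without it the ratio was 0.390. The remaining genes of the 28 encode cell-surface, endothelial or secretory pathway proteins, enzymes of the vitamin K cycle or, for *F13a1*, a subunit of factor XIII, and many of these were low. The vitamin K-dependent genes are few and the members are not replicates, so no p-value was computed.

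The genes of the vitamin K cycle were expressed at lower or middling levels beside those of its substrates. *Ggcx*, the carboxylase that modifies the glutamates, had a mean normalized count of 1870 and a level per kilobase of 48.3, under each of the 7 vitamin K-dependent genes. *Vkorc1*, the reductase that regenerates vitamin K and is the target of warfarin, had 3420 and 346 per kilobase, between *F10* and *F9*. Its paralog *Vkorc1l1* had 1887 and 29.7 per kilobase, but 142 per coding length, since its transcript is mostly untranslated. *Vkorc1* shares 48.7% of its 75-base runs, the length of the reads, with the overlapping gene *Gm21974*. *Gm21974* is not listed among the authors' genes under that symbol. How reads of the shared stretch were handled is not given in the sources used here. *Vkorc1l1* shares 11.6% of its runs with *Gm5417*, so part of its reads could have been given to that gene or discarded.

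Genes of the contact system, which starts clotting on charged surfaces, differed by 55.9 times in level per kilobase. *Kng1*, a gene of kininogen, the cofactor of the system, had 81292 counts and 2729 per kilobase. *Kng2*, its neighbouring copy, had 9437 counts and 311 per kilobase. Their coding sequences were identical at 92.8% of aligned bases, and they share 10.6% and 10.5% of their 75-base runs, so part of the reads of each could have been given to the other or discarded. *F12*, which encodes the initiating protease, lay at 655 per kilobase. *Klkb1*, which encodes plasma prekallikrein, lay at 87.1 and *F11*, which encodes factor XI, at 48.8, the lowest of this group. *Klkb1* shares 42.4% of its 75-base runs with *Gm45753*, an overlapping gene model on the same strand. *Gm45753* is not listed among the authors' genes under that symbol, so no count stands beside that of *Klkb1*. How reads of the shared stretch were handled was not tested.

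The cofactors of the cascade stood far apart. *F5*, which encodes the cofactor of factor Xa, had a mean normalized count of 18203 and 185 per kilobase. *F8*, which encodes the cofactor of factor IXa, had 345 and 2.67 per kilobase, at percentile 45.1 of genes above 0. *Vwf*, which encodes the carrier of factor VIII in plasma, had 161 and 1.38 per kilobase. The cargo receptor that carries both cofactors out of the endoplasmic reticulum is made of the products of *Lman1* and *Mcfd2*, which had 117 and 228 per kilobase. Of the genes of factor XIII, which cross-links fibrin, *F13b*, the carrier subunit, reached 251 per kilobase with 7902 counts. *F13a1*, the enzyme subunit, had a mean of 10.04 counts and 0.19 per kilobase.

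Among the inhibitors, *Serpinc1*, the gene of antithrombin, was highest with 60885 counts and 927 per kilobase. Its longest transcript has 4970 bases, of which 1395 are coding, and per coding length its level was 1735. It thus lay under *F2* (1349) by the longest transcript and above *F2* (1209) by the coding length. *Serpinc1* shares 2942 exonic bases with *Zbtb37* on the opposite strand, which had 109 counts. *Serpind1*, the gene of heparin cofactor II, had 542 per kilobase and *Serpina10*, whose product inhibits factor Xa together with protein Z, 134. *Tfpi*, the gene of the inhibitor of the tissue factor pathway, had 135.1 counts and 2.58 per kilobase. *Serpina5*, the gene of the protein C inhibitor, had a mean of 2.46 counts, the only gene of the set at or under 10. *Hrg*, which encodes a plasma protein that binds plasminogen and heparin, and *Cpb2*, whose product protects fibrin from lysis, were high, at 2695 and 611 per kilobase.

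The cell-surface genes lay near or under the median of all genes. *F3*, the gene of tissue factor, had 133 counts and 5.40 per kilobase, at percentile 53.8. *Thbd*, the gene of thrombomodulin, had 123 and 2.50, and *Procr*, the gene of the endothelial receptor of protein C, had 19.3 and 0.91. The levels of *F3* and *Thbd* lay within the range of the endothelial markers, and that of *Procr* lay under it. The 9 markers of liver endothelial cells ran from 1.31 to 48.1 per kilobase with a median of 11.7, and the 7 Kupffer cell markers from 6.03 to 88.3 with a median of 22.8. The 7 markers of platelets and megakaryocytes, cells known to hold factor XIII, ran from 0.0022 to 1.56 with a median of 0.22, a range that held *F13a1*. Only 3 of these 7 had a mean above 10, and *F13a1* had 10.04. Such nearness between barely detected genes does not point to a cell type. The 6 stellate cell markers ran from 2.03 to 67.1 with a median of 6.20, a range that also held *F3* and *Thbd*. The 4 cholangiocyte markers ran from 0.48 to 4.91 with a median of 3.05, a range that held *Thbd* and *Procr*. The 8 hepatocyte markers had a median of 1836, with *Ass1* lowest at 1.54. In whole liver, few cells of a type and little RNA per cell cannot be told apart, and the cell of origin of these transcripts was not tested.

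**Figure D3:**
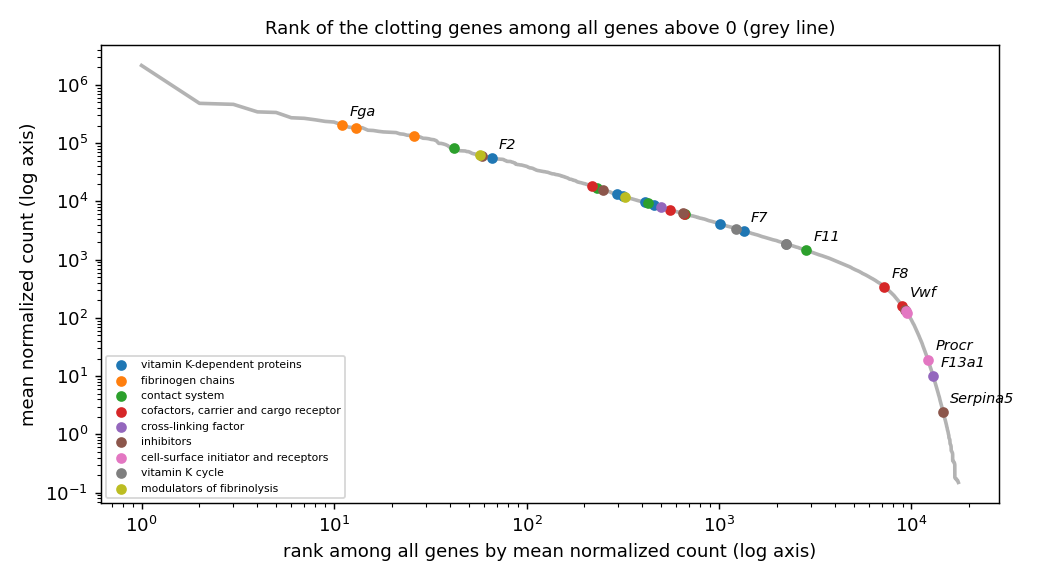
Mean normalized count (y axis, log) against rank among all genes listed above 0 (x axis, log), with all genes as a grey line and the clotting genes as points coloured by role. The fibrinogen chains stand at ranks 11 to 26 and *Serpina5* at rank 14609.

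Genes of fibrinolysis, the pathway in which PAI-1 acts, covered the same wide range. *Plg*, the gene of plasminogen, had 99201 counts and 2724 per kilobase, about the level of *Kng1* and *Hrg*. *Serpinf2*, which encodes the plasmin inhibitor, had 28601 counts and 988 per kilobase. The activators were low, with 20.5 counts for *Plat* and 42.7 for *Plau*, as was the receptor gene *Plaur* with 18.2. Of the 11 genes of this list, 9 had a mean above 10. Of the other genes with a Gla domain, *Gas6* was highest at 58.9 per kilobase, under the lowest of the 7 vitamin K-dependent clotting genes, and 5 of the 7 had a mean above 10. The median was 0.36 per kilobase.

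Of the 35 genes, 11 lay next to another gene of the set, in 7 neighbouring pairs with 0 protein-coding genes lying wholly between them. On chromosome 3 the order was *Fgg* (83007724 to 83015049), *Fga* (83026076 to 83033627) and *Fgb* (83040141 to 83049863, on the other strand). On chromosome 8, *F7* (13026034 to 13035809) was followed after 1498 bases by *F10* (13037308 to 13056676) and after 4237 more by *Proz* (13060914 to 13076026). These 3 neighbours, all vitamin K-dependent, differed more than the fibrinogen chains did, since *F10* was 3.17 times *F7* per kilobase. *F11* and *Klkb1*, 4657 bases apart on the same chromosome, differed 1.79 times, or 4.09 times per coding length. *Hrg*, *Kng2* and *Kng1* followed each other on chromosome 16, and *Kng2* in the middle was the low one, since *Hrg* had 8.65 times and *Kng1* 8.76 times its level per kilobase. Neighbours thus had close levels in the fibrinogen cluster and unlike levels at *Kng2*. Positions are those of GENCODE M21 on GRCm38, also named mm10.

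**Figure D4:**
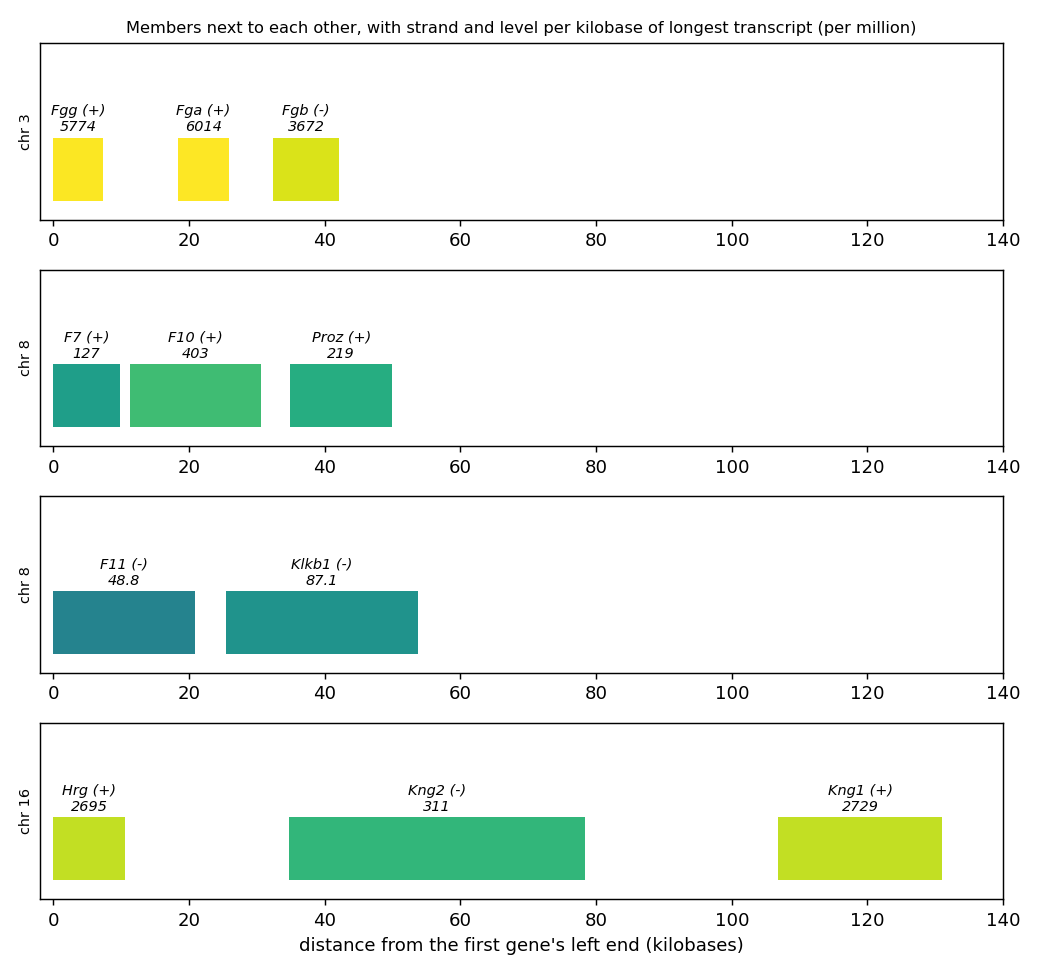
Members next to each other on chromosomes 3, 8 (2 clusters) and 16, drawn to scale by distance from the left end of the first gene (x axis, kilobases), with the strand and the level per kilobase above each gene and lighter colour for a higher level. The fibrinogen genes run from 3672 to 6014, and *Kng2* (311) lies between *Hrg* (2695) and *Kng1* (2729).

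Promoters were searched for short motifs of liver transcription factors, since hepatocyte genes are known to use them. RefSeq promoters (GRCm38.p6) were found for 29 of the 35 genes, and those of *Proc*, *Kng1*, *Lman1*, *Vwf*, *Serpina10* and *Thbd* were not used here. In the 250 bases before the start, the FOXA motif TGTTTAC was found on either strand in 3 of 29 promoters, or 10.3% (95% exact Clopper-Pearson interval 2.19 to 27.4), against 3.09% of all 27025 promoters. The C/EBP motif TTGCGNAA was in 1, or 3.45% (0.087 to 17.8), against 0.67%. The HNF4 motif CAAAGTC was in 0, with an upper bound of 11.9%, against 3.80%, and TATAAA on the strand of the gene was in 0, against 8.12%. Each interval held the share of all promoters, so no motif stood out at this number of promoters, and 25 of the 29 held none of the 4. The matches to the FOXA motif in 2 neighbouring genes are shown to make their sequence context visible, with the motif in capitals, as it reads 5' to 3' on the strand of the gene.
F11 (chr8:45262039-45262067, - strand): taacggcacaaGTAAACAtttaagcaaca
Klkb1 (chr8:45294839-45294867, - strand): agaaacccagtGTAAACActggagccaag
The neighbours *F11* and *Klkb1* both held the FOXA motif on the other strand, 25 and 21 bases before the RefSeq start. The GENCODE model of *Klkb1* (45266689 to 45294859) starts further upstream and includes the match. Their coding sequences were identical at 67.5% of aligned bases. Of the 6 vitamin K-dependent genes with a promoter, 0 held any of these motifs, against 4 of the other 23 and 14.7% of all promoters, too few promoters to tell these shares apart. The mean normalized counts of the transcription factor genes were 24370 for *Hnf4a*, 9675 for *Cebpa* and 3711 for *Cebpb*. They were 1475 for *Foxa3*, 799 for *Foxa2* and 674 for *Foxa1*. All 10 of the liver factors listed had a mean above 10. A motif match is a match of letters and was not tested for binding.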

How the data were processed

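Hepatic mRNA of 6 mice (3 WT, 3 Pai-1+/-) was sequenced as 75-base single-end reads, aligned by the authors to mm10 with STAR and compared with DESeq2 in the RNA Express BaseSpace application. Their processing notes also name HOMER. Versions, annotation and strand setting are not given in the sources used here. The signal used is the deposited mean normalized count, which the authors averaged over all libraries after scaling each by its size factor. Their fold changes, standard errors, test statistics and p-values of Pai-1+/- against WT were not used. The 6 columns of counts per animal carry animal numbers that match no label and were not used. Since no column could be tied to a sample of the series, the planned edgeR test was not run, and depth per library, SDs and differences between genotypes were not computed.

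The members and lists were chosen with earlier results of these data known. All members are named, and genes of other lists where their list is counted. Of 12971 genes with a mean above 10, 96.4% matched 1 gene model of GENCODE M21 by symbol, as did all 35 members. Members that followed each other directly along a chromosome, within 100000 bases, were called neighbours. Intervals cover counting error only. The planned search of protein residues was replaced by one of codons, since no protein table was used. The sequence searches were tested on simulated data. Python 3.11.15, pandas 2.3.3, NumPy 2.4.6, SciPy 1.17.1, Biopython 1.88 and Matplotlib 3.10.9 were used. Promoters came from RefSeq. Some planned results are not reported here.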

Additional observations from a re-analysis of the deposited data

How the results depend on the processing

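The median percentile of the 35 genes moved from 96.6 to 94.5 with the coding length and to 95.4 against genes with a mean above 10. The ratio of the median of the vitamin K-dependent genes to that of the rest was 1.49. It moved to 1.90 with the coding length, 1.57 with no division by length, 1.90 without *Kng1* and *Kng2*, and 1.77 without the 5 genes that share over 5% of their 75-base runs with another gene, an alternative chosen after seeing the data. It was reversed, at 0.414, with the rest limited to plasma proteins of hepatocytes, and with this limit it was 0.859 per coding length and 0.390 without *Serpina5*, both chosen after seeing the data. Per coding length, 16 of 35 genes moved by over 1.5 times, from 0.55 times (*Vwf*) to 4.78 times (*Vkorc1l1*), and 1 crossed the median of all genes. With the transcript of the longest coding sequence, also chosen after seeing the data, 1 gene (*Tfpi*, 1.79 times) moved by as much. In the 300-base window the share of promoters moved from 3.45% to 6.90% for the C/EBP motif, with *Serpinc1* added, and from 0 to 3.45% for TATAAA, with *Hrg*, both within wide intervals, and did not move for the other motifs, and the codon pattern was in 8 genes of the set over the whole coding sequence against 7.

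DESeq2, the fit with no filter and the fits without a replicate were not run, for want of columns with a genotype. No paired analysis was possible, because the replicate numbers of the labels count mice within each genotype and pair none between genotypes. Depth per library and the spread between animals were not computed, so the levels are given with no error.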

Other observations

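Among the hepatocyte markers, *Ass1*, an enzyme of the urea cycle, had a mean normalized count of 34.5 and 1.54 per kilobase, while the other 7 markers had at least 37617 counts. Complement genes made by the same cells lay in the range of the clotting genes, with *C3* at 336360 counts and 4958 per kilobase, *Cfb* at 1133, *Cfi* at 825 and *Masp1*, the lowest of the 8 found, at 26.2, and a median of 575 per kilobase. *C5* is not listed under that symbol.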
